A study of Homo sapiens with 6 samples.

Results

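The genes described here are 37 transcripts of the NRF2 pathway and of the enzymes that remove reactive oxygen species, chosen by symbol from the 19475 gene symbols of the deposited count table. All 37 were in the table and all passed the filter on low counts, with mean levels in the TNF group from 11.2 to 4808 CPM (counts scaled to the library size, as edgeR's CPM). RNA sequencing was done on MH7A cells, an immortalised synovial fibroblast line from rheumatoid arthritis that carries the SV40 large T antigen. TNFα, at 10 ng/ml, was present in each of the 6 libraries. In 3 of them (LED replicates 4, 6 and 10) the cells had also received 630 nm red light from an LED for 15 min, 3 times, and the other 3 (TNF replicates 2, 8 and 14) had TNFα alone. The single comparison asks how the transcripts differed with light in cells that all had TNFα. No group had no TNFα, light alone or warming alone, so what TNFα did to these genes was not measured and light and any warmth of the lamp cannot be told apart.

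NRF2, encoded by NFE2L2, is a transcription factor that KEAP1 holds in the cytoplasm and passes on for degradation. When oxidants or electrophiles modify KEAP1, NRF2 accumulates, pairs with a small MAF protein and binds antioxidant response elements, where BACH1 otherwise represses transcription. Its targets make glutathione, reduce thioredoxin, break down heme, store iron and supply NADPH, the reducing power on which these systems draw. In the rheumatoid joint lining this defence faces oxidants released by inflammatory cells. Because NRF2 is controlled mainly through protein stability, its own transcript need not follow its activity.

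Deposited totals lay between 86000253 and 108074289 per library. TNF replicate 8 and LED replicate 6 stood apart from the rest. Across 13655 genes, the deviation from the 6-library mean correlated with exonic length at a Spearman rho of -0.28 in TNF replicate 8 and -0.25 in LED replicate 6, and at 0.16 to 0.34 in the other 4 libraries. The correlation with GC content was 0.52 in TNF replicate 8 and between -0.34 and -0.04 in the others. These are descriptions over genes that share a library. The cells carried fibroblast transcripts, with COL1A1 at 8705 to 14262 CPM, while the leukocyte marker CD3E was at 0 in every library. PRG4, which marks the synovial lining, did not exceed 0.0787 CPM. The summed level of 13 leukocyte markers was 94.0 to 140 CPM with TNF and 116 to 156 CPM with LED, of which CD68 (92.2 to 153 CPM) made up most, and 6 to 9 of the 13 were at 0 in each library. The sum of 12 endothelial and epithelial markers was 123 to 153 CPM with TNF and 109 to 124 CPM with LED. In that list CDH5 and KRT5 were at 0 throughout, while TEK (56.7 to 112 CPM), KRT18 (28.4 to 46.2 CPM) and KDR (3.51 to 9.20 CPM) were detected in every library, and 3 to 5 of the 12 were at 0 in each. The part of these markers in the results was not tested.

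Of the 37 transcripts 2 were higher with LED at an adjusted p below 0.05: HMOX1, the enzyme that opens the heme ring, 4.33-fold, and OSGIN1, an oxidative stress-induced growth inhibitor, 2.71-fold. This is 5.41% of the genes, against 2.44% of all 13794 genes tested that were called higher and 5.17% called in either direction. No member was called lower (0 at an unadjusted p below 0.05, and 0 by DESeq2 or limma-voom), where 2.73% of all genes were. The other 35 did not pass. The log2 fold change was above 0 for 29 of 37 members (78.4%) and for 50.8% of all genes tested, and the median was 0.24 against 0.01. The 3 LED libraries lay wholly above the 3 TNF libraries for 10 members (27%), where this held for 16.2% of all tested genes, and wholly below them for none, where it also held for 16.2% (32.4% in either direction). At an unadjusted p below 0.05 there were 8 members (21.6%), all higher, against 22.7% of all genes in either direction, 10.9% higher and 11.8% lower. In bulk RNA, fewer cells with a transcript and less of it per cell cannot be told apart. The labels do not say that the libraries are separate cultures, so the p-values measure the spread between these samples.

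**Figure D1:**
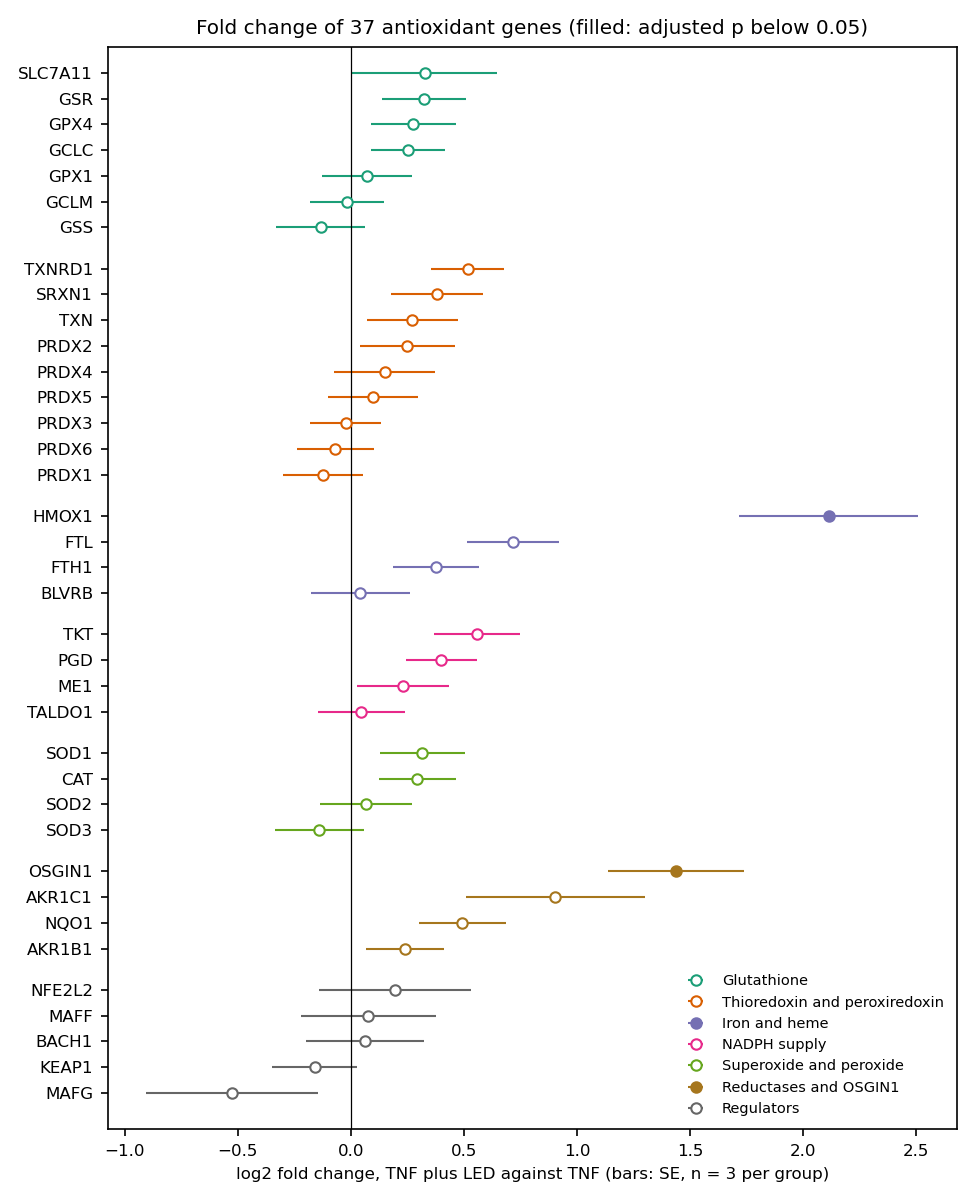
Log2 fold change of TNF plus LED against TNF (x axis) for the 37 genes (y axis), coloured by function, with SE bars (n = 3 per group) and filled points where the adjusted p was below 0.05. HMOX1 at 2.11 and OSGIN1 at 1.44 are the 2 filled points, and MAFG at -0.52 is the lowest.

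Promoters were searched for the element that NRF2 binds. RefSeq promoter windows on GRCh38.p14, from 250 bases before to 50 after a start site, were matched by symbol for 29 of the 37 members (42 windows, since some genes have several starts). SLC7A11, GSS, GSR, PRDX1, PRDX6, HMOX1, FTH1 and SOD1 were not among them. The core of the antioxidant response element was taken as TGACNNNGC on either strand. It was found in 7 of the 42 windows (16.7%), from 6 genes, and in 13.4% of all 35093 windows. Each of the 10 matches reads as follows, along the strand on which the core stands, with the core in capitals and 10 bases on either side.
TXNRD1, chr12:104215670-104215698, plus strand: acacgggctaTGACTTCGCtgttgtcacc
TXNRD1, chr12:104215761-104215789, minus strand: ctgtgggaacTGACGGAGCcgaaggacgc
TXNRD1, chr12:104286920-104286948, minus strand: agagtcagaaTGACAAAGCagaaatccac
PGD, chr1:10398853-10398881, minus strand: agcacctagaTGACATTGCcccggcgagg
ME1, chr6:83431170-83431198, minus strand: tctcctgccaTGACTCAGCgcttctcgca
ME1, chr6:83431022-83431050, plus strand: gctgctggggTGACGGTGCtgactgcagc
GCLM, chr1:93909446-93909474, plus strand: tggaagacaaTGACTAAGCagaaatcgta
KEAP1, chr19:10502807-10502835, minus strand: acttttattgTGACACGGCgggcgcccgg
KEAP1, chr19:10502784-10502812, plus strand: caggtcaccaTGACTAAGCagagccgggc
MAFF, chr22:38201862-38201890, minus strand: cgcccccgtaTGACCCCGCcccctggaag

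TXNRD1 and PGD, which held a match, had LED libraries wholly above the TNF libraries. GCLM, ME1, KEAP1 and MAFF, which held one as well, had overlapping groups. Of all tested genes, 16.2% had LED libraries wholly above the TNF libraries. GCLC, CAT, NQO1, FTL, TKT and OSGIN1 also had LED libraries wholly above the TNF libraries, and held no match to TGACNNNGC in these windows. Other forms of the element, and bases outside the 250 before and 50 after a start site, were not searched. A gene without a match here may therefore hold an element elsewhere. The heat shock element, taken as GAANNTTCNNGAA or TTCNNGAANNTTC on either strand, was in 0 of the 42 windows and in 0.49% of all windows. OSGIN1 is the called gene for which a window was matched, and its 250 bases before the start site (chr16:83952990-83953239, plus strand) are printed with an AP-1 site, TGACTCA on either strand, in capitals. That motif shares its first 4 letters with the antioxidant element core as taken here. Read on the minus strand with the bases that follow, the OSGIN1 site differs from that core only in letter 4. The motif was chosen after this sequence was seen. It was found in 3 of the 42 windows (7.14%) and in 4.95% of all windows.
OSGIN1: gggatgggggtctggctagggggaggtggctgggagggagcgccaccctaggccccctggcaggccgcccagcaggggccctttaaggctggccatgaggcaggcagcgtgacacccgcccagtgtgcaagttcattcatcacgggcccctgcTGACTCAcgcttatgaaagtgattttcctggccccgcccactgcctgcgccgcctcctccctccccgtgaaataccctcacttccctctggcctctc

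Among the genes of heme and iron, HMOX1 was the member with the largest fold change of all 37. With TNF alone its level was 20.6 CPM in replicate 2, 33.2 CPM in replicate 8 and 17.5 CPM in replicate 14, and with LED it was 128, 134 and 47.5 CPM in replicates 4, 6 and 10. The groups did not overlap, but LED replicate 10 lay much nearer to the TNF libraries than the other 2 did. The log2 fold change was 2.11 ± 0.40 (SE, n = 3 each, edgeR adjusted p = 0.0251). The direction held in each single-library omission, between 1.88 and 2.46, and the adjusted p rose above the threshold when TNF replicate 14 (0.0831), LED replicate 4 (0.075) or LED replicate 6 (0.118) was left out, and when TNF replicate 8 and LED replicate 6 both were (0.16). HMOX1 is also known as a heat shock protein, and HSPA1A, the inducible HSP70, had 6010, 10652 and 3645 CPM in LED replicates 4, 6 and 10 against 81.1 to 188.5 CPM with TNF. Both genes were thus highest in LED replicate 6 and lowest, among the LED libraries, in replicate 10. Being highest in LED replicate 6 was not particular to them: it held for 26 of the 37 members (70.3%) and for 25.2% of all genes tested. The part of heat shock genes in the result was not tested.

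Ferritin, the cage that stores the iron freed from heme, has a light and a heavy chain. The light chain gene FTL had 4252, 3682 and 3713 CPM with TNF and 5717, 8008 and 5417 CPM with LED in the same library order. Its groups did not overlap, and the spread among the LED libraries came from replicate 6. The log2 fold change of 0.72 ± 0.20 did not pass in the edgeR fit (adjusted p = 0.0751). It passed with DESeq2 (0.009), with the trend of each library with length and GC removed (0.0387) and without both libraries that stood apart (0.0483). The heavy chain gene FTH1, which carries the ferroxidase activity, had 5188, 4284 and 4951 CPM with TNF and 5417, 7442 and 5846 CPM with LED, also without overlap (log2 0.38 ± 0.19, adjusted p = 0.283). The lowest LED library exceeded the highest TNF library by little. Together the ferritin chains made up 0.788% to 0.983% of a TNF library and 1.13% to 1.44% of a LED library, more than the other 35 members combined (54.5% to 63.9% of the counts of the list). BLVRB, a biliverdin and flavin reductase, had 23.7 ± 3.40 and 24.4 ± 6.15 CPM (SD, n = 3 each), with overlapping groups.

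**Figure D2:**
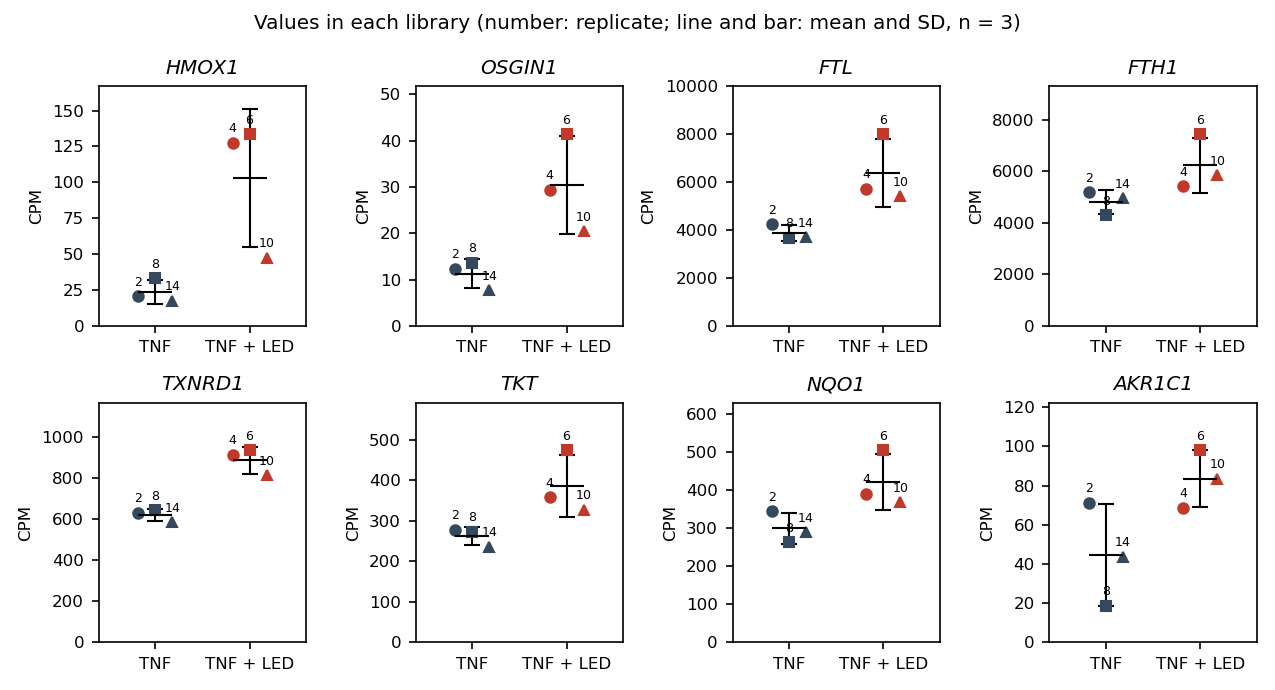
CPM (y axis) in each library for 8 genes, by group (x axis), with replicate numbers at the points and the mean and SD of 3 libraries as a line and bar. HMOX1, OSGIN1, FTL, FTH1, TXNRD1, TKT and NQO1 show no overlap between the groups, while AKR1C1 overlaps through TNF replicate 2 at 71.3 CPM and LED replicate 4 at 68.8 CPM.

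OSGIN1 was at 12.3, 13.7 and 7.68 CPM with TNF (replicates 2, 8, 14) and at 29.4, 41.4 and 20.4 CPM with LED (replicates 4, 6, 10). Every LED library was above every TNF library, and LED replicate 10 was again the lowest of the 3. The log2 fold change was 1.44 ± 0.30 (adjusted p = 0.0329). The value stayed between 1.15 and 1.65 with any single library left out, and the adjusted p passed the threshold only while TNF replicate 8 (0.0526 without it), TNF replicate 14 (0.101), LED replicate 4 (0.0971) and LED replicate 6 (0.133) were included; without both that stood apart it was 0.061. In the reference annotation OSGIN1 shares exonic bases with a gene model on the same strand, so part of its counts could belong there.

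The reductases that detoxify quinones and carbonyls lay in the same direction without passing. NQO1, which reduces quinones in one step and is a standard readout of NRF2, had 345, 263 and 289 CPM with TNF and 390, 504 and 368 CPM with LED. The groups did not overlap, by the margin between TNF replicate 2 and LED replicate 10. The log2 fold change was 0.49 ± 0.19 (adjusted p = 0.166). AKR1C1, an aldo-keto reductase with close paralogs among which reads may be split, had 71.3, 18.8 and 43.7 CPM with TNF and 68.8, 97.9 and 83.6 CPM with LED (log2 0.90 ± 0.40, adjusted p = 0.214). Its fold change lay between 0.54 and 1.40 with any single library left out, and the TNF libraries themselves spread from 18.8 to 71.3 CPM. AKR1B1, the aldose reductase, had 1056 ± 134 and 1247 ± 89.4 CPM with overlapping groups (log2 0.24 ± 0.17).

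In the thioredoxin system none of 9 genes passed in the edgeR fit. At an unadjusted p below 0.05 there was 1 (11.1%), which was higher, where 10.9% of all genes were higher. TXNRD1, the selenoenzyme that passes electrons from NADPH to thioredoxin, had 633, 644 and 587 CPM with TNF and 916, 936 and 814 CPM with LED. The gap between them exceeded the range within either. Its promoters held 3 of the response element cores printed above, whose part in its level was not tested. The log2 fold change of 0.52 ± 0.16 did not pass in the edgeR fit (adjusted p = 0.0966), and passed with DESeq2 (0.0203) and without both libraries that stood apart (0.0299). In every alternative it lay between 0.47 and 0.57, and it was 0.48 without LED replicate 6. TXN, thioredoxin itself, had 237 ± 21.5 and 285 ± 68.2 CPM with overlapping groups. SRXN1, which restores overoxidised peroxiredoxins, had 58.9 ± 9.19 and 76.7 ± 15.1 CPM (log2 0.38 ± 0.20, adjusted p = 0.308).

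None of the 6 peroxiredoxins, the thiol peroxidases of cytosol, mitochondria and secretory pathway, passed (0 at an unadjusted p below 0.05 and 0 by DESeq2). The log2 fold changes were -0.12 ± 0.18 for PRDX1, 0.25 ± 0.21 for PRDX2, -0.02 ± 0.16 for the mitochondrial PRDX3, 0.15 ± 0.22 for the PRDX4 of the endoplasmic reticulum, 0.10 ± 0.20 for PRDX5 and -0.07 ± 0.17 for PRDX6. All 6 had overlapping groups. Without LED replicate 6 alone the signs of PRDX4 and PRDX5 turned to -0.09 each. They did not turn in any other alternative, including the fit without both TNF replicate 8 and LED replicate 6. TNF replicate 8 held the highest TNF value of both genes (145 CPM for PRDX4 and 113 CPM for PRDX5).

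Glutathione is the main small thiol that buffers oxidants in the cell. None of its 7 genes passed (0 at an unadjusted p below 0.05 and 0 by DESeq2 or limma-voom), and the median log2 fold change was 0.25, or 0.05 without LED replicate 6. GSR, which regenerates reduced glutathione with NADPH, had the lowest p of the 7, with 53.4, 37.5 and 39.4 CPM with TNF and 53.7, 56.0 and 53.4 CPM with LED (log2 0.32 ± 0.18, adjusted p = 0.34). TNF replicate 2 was at the level of the LED libraries. The catalytic subunit of the rate-limiting ligase, GCLC, had 39.1 ± 3.42 and 46.7 ± 3.84 CPM, without overlap but close (log2 0.25 ± 0.16). Its modifier subunit GCLM had 30.1 ± 3.27 and 29.7 ± 1.18 CPM (log2 -0.02 ± 0.16). GCLM is, like HMOX1 and NQO1, a common NRF2 target, and its groups overlapped, with a core in its promoter window.

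SLC7A11, the cystine importer that feeds glutathione synthesis, varied more within the groups than between them. It had 155, 67.0 and 141 CPM with TNF and 128, 205 and 123 CPM with LED (log2 0.33 ± 0.32, adjusted p = 0.597). Without both libraries that stood apart its sign turned, to -0.24. GSS, which adds glycine in the last step of synthesis, was at a log2 fold change of -0.13 ± 0.20. The glutathione peroxidases GPX1, which clears hydrogen peroxide, and GPX4, which clears lipid peroxides, were at 0.07 ± 0.20 and 0.28 ± 0.19. Both overlapped between groups.

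Of the 4 genes listed under NADPH supply, 2 had LED libraries wholly above the TNF libraries, where this held for 16.2% of all tested genes. None passed (0 by DESeq2 or limma-voom). At an unadjusted p below 0.05 there were 2, both higher, where 10.9% of all genes were higher. The transketolase TKT of the pentose phosphate pathway had 278, 274 and 237 CPM with TNF and 358, 474 and 327 CPM with LED (log2 0.56 ± 0.19, adjusted p = 0.124). It passed when the trend with length and GC was removed (0.0488). PGD, the dehydrogenase that makes the second NADPH of the pathway, had 284, 256 and 266 CPM with TNF and 335, 383 and 346 CPM with LED (log2 0.40 ± 0.16, adjusted p = 0.169). The lowest LED library was above the highest TNF library by more than the range within the TNF group. The malic enzyme ME1 had 80.1 ± 19.0 and 94.0 ± 4.46 CPM, and TALDO1, the transaldolase that works beside TKT, had 255 ± 30.3 and 264 ± 51.9 CPM. Both overlapped.

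The enzymes that act directly on superoxide and hydrogen peroxide did not pass (0 of 4, 0 at an unadjusted p below 0.05 and 0 by DESeq2 or limma-voom). Catalase, encoded by CAT, had 39.9, 39.0 and 36.2 CPM with TNF and 46.4, 53.8 and 40.8 CPM with LED (log2 0.29 ± 0.17, adjusted p = 0.347). The groups did not overlap, with LED replicate 10 just above TNF replicate 2. The cytosolic SOD1 was at a log2 fold change of 0.32 ± 0.19 and the secreted SOD3 at -0.14 ± 0.20. SOD2, the mitochondrial dismutase and a known TNFα target through NF-kB, had 1063, 725 and 957 CPM with TNF and 947, 827 and 1104 CPM with LED. Its groups overlapped (log2 0.07 ± 0.20, adjusted p = 0.876), with the lowest of the 6 libraries among TNF and the highest among LED.

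The regulators of the pathway did not pass either (0 of 5, 0 at an unadjusted p below 0.05 and 0 by DESeq2 or limma-voom). NFE2L2 had 136, 62.2 and 127 CPM with TNF and 153, 76.0 and 143 CPM with LED, a log2 fold change of 0.20 ± 0.34 (adjusted p = 0.778). The low library in each group was the one that stood apart, TNF replicate 8 and LED replicate 6, and the other 4 lay between 127 and 153 CPM. KEAP1, the inhibitor, had 53.5, 75.5 and 56.9 CPM with TNF and 57.5, 50.1 and 58.7 CPM with LED (log2 -0.16 ± 0.19, adjusted p = 0.665). Without TNF replicate 8 the libraries lay between 50.1 and 58.7 CPM. NFE2L2 shares exonic bases with neighbouring genes on both strands in the reference annotation, and whether the counting used strand is not stated in the labels.

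BACH1, the repressor of HMOX1, had 65.0, 32.2 and 66.5 CPM with TNF and 56.1, 58.1 and 57.0 CPM with LED, with TNF replicate 8 far below the rest. Of the small MAF partners, MAFG had 62.4, 79.2 and 57.6 CPM with TNF and 64.8, 18.9 and 54.8 CPM with LED. Its log2 fold change of -0.52 ± 0.38 (adjusted p = 0.457) rested on LED replicate 6 and was -0.15 without it. MAFF, the stress-inducible small MAF, had 69.3, 137 and 99.3 CPM with TNF and 101, 146 and 75.4 CPM with LED (log2 0.08 ± 0.30), and varied more within each group than between them.

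**Figure D3:**
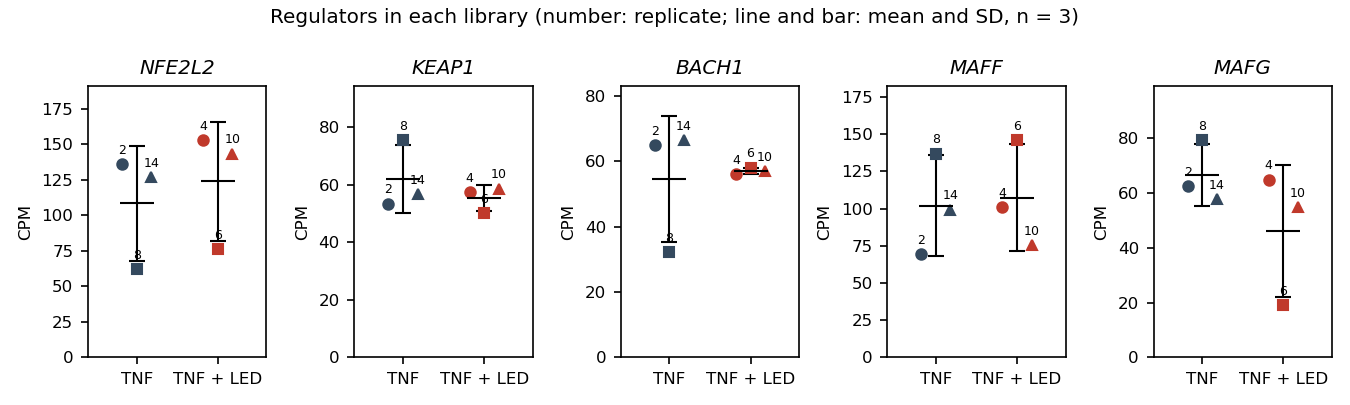
CPM (y axis) of NFE2L2, KEAP1, BACH1, MAFF and MAFG in each library by group (x axis), with replicate numbers at the points and the mean and SD of 3 libraries. The groups overlap in all 5 panels, and the outlying points are TNF replicate 8 (NFE2L2 at 62.2, BACH1 at 32.2 CPM) and LED replicate 6 (MAFG at 18.9 CPM).

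Set side by side, the functional groups had median log2 fold changes of 0.70 for the reductases with OSGIN1 (4 genes), 0.55 for iron and heme (4), 0.32 for NADPH supply (4), 0.25 for glutathione (7), 0.18 for superoxide and peroxide (4), 0.15 for thioredoxin and peroxiredoxin (9) and 0.06 for the regulators (5), against 0.01 for all genes tested. No test of the differences between these groups was made, and single libraries changed their order. Without LED replicate 6 the medians were 0.56 for the reductases, 0.37 for iron and heme and 0.28 for NADPH supply. They were 0.17 for superoxide and peroxide and 0.05 for glutathione, and those of thioredoxin (-0.05) and the regulators (-0.09) turned below 0. TNF replicate 8 stayed in that fit, and there the median thioredoxin gene lay 0.10 above its 6-library mean. The regulators were also below 0 without TNF replicate 2 (-0.15) or TNF replicate 8 (-0.08), and thioredoxin was at 0.06 without TNF replicate 2 and 0.08 without TNF replicate 14. The reductase median ran from 0.47 without TNF replicate 8 to 0.99 without TNF replicate 2. LED replicate 6 weighed most in the positive median of the list. It was the highest of the 6 libraries for 26 of the 37 members (70.3%), against 25.2% of all genes tested, and the median member lay 0.33 above its 6-library mean there, 0.02 above it in LED replicate 4 and at 0.00 in LED replicate 10. The TNF libraries lay at -0.07, -0.12 and -0.13 (replicates 2, 8 and 14). Without LED replicate 6 the median of the 37 log2 fold changes was 0.10, and without both libraries that stood apart it was 0.09. With the trend with length and GC removed it was 0.18.

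**Figure D4:**
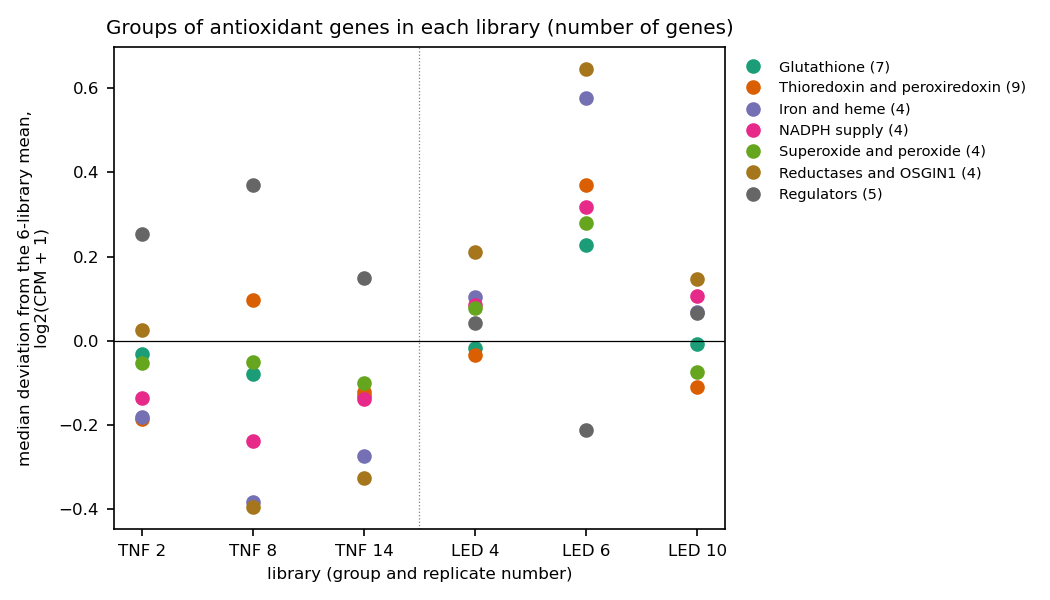
Median deviation of each functional group from its 6-library mean on the log2(CPM + 1) scale (y axis) in each library (x axis), coloured by group with the number of genes. LED replicate 6 has the highest points, up to 0.65 for the reductases with OSGIN1, and also the lowest LED value, -0.21 for the regulators.

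Levels of different genes were roughly compared as CPM per kilobase of annotated exons. The length joined all annotated exons of a gene (16008 bases for SOD2 and 7077 for AKR1C1). It can exceed the length of the transcripts present, and the level then comes out too low. On this scale the members spanned from 4.13 (OSGIN1) to 4422 (FTL) with TNF. FTL (7267 with LED) and FTH1 (2973 and 3856) were the most abundant, followed by AKR1B1 (750 and 885). HMOX1 went from 13.1 to 56.5 CPM per kilobase, passing the level of ME1 (23.8 and 27.9) and staying below that of TXNRD1 (123 and 176). OSGIN1, at 11.2 with LED, passed GCLC (7.32) and GCLM (6.07) and stayed below most other members.

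A wider list of 146 further genes of these pathways held 130 tested ones, of which 6 were called higher and 0 lower, where 2.44% and 2.73% of all tested genes were. At an unadjusted p below 0.05, 27 of them were higher (20.8%, against 10.9% of all genes) and 11 lower (8.46%, against 11.8%). DESeq2 called more genes throughout: 16 of the list higher and 5 lower, and 874 and 879 of all 13794 genes. The median log2 fold change of the list in the edgeR fit was 0.03. SESN3, a sestrin that links oxidative and nutrient stress to mTORC1, had 0.717, 0.502 and 0.784 CPM with TNF and 22.8, 6.59 and 16.5 CPM with LED, a log2 fold change of 4.51 ± 0.46 (adjusted p = 0.00278). It stayed called in all 15 alternatives, which none of the 2 members or 5 other listed genes that passed did. In this gene LED replicate 6 was the lowest LED library, not the highest. Its relative SESN1 rose by 1.32 ± 0.32 (5.52 ± 1.74 to 13.8 ± 4.97 CPM, adjusted p = 0.047), and lost its call in 5 of the 6 single-library omissions.

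In heme synthesis ALAS1, the rate-limiting first enzyme, which heme represses, had 81.1, 82.9 and 80.2 CPM with TNF and 161, 138 and 126 CPM with LED. The TNF values were nearly the same, and every LED library was far above them. ALAS1 was the only one of 19 tested further iron and heme genes to pass (log2 0.80 ± 0.16, adjusted p = 0.032, and up to 0.135 in single omissions). Of all tested genes 2.44% were called higher. The 19 genes had a median log2 fold change of -0.12, with 12 below 0. At an unadjusted p below 0.05 there were 4 (21.1%), 2 higher and 2 lower, near the 22.7% of all genes. HMOX2, the constitutive heme oxygenase, had 50.3 ± 9.08 and 36.9 ± 1.62 CPM (log2 -0.45 ± 0.18, adjusted p = 0.177), opposite in sign to HMOX1.

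Among 17 further regulators BACH2, a relative of BACH1, rose by 1.52 ± 0.33 from a low level (0.907 ± 0.202 to 2.61 ± 0.65 CPM, adjusted p = 0.0364), and TRIM16, an E3 ligase linked to NRF2 stability, rose by 0.78 ± 0.19 (50.4 ± 7.57 to 86.7 ± 12.5 CPM, adjusted p = 0.0482). BACH2 lost its call in 5 single-library omissions and TRIM16 in all 6. Of 13 tested sources of oxidants, NCF1 was called, a subunit of the phagocyte NADPH oxidase with near-identical pseudogene copies. It was at 0 in all TNF libraries and at 0.142, 0.199 and 0.176 CPM with LED. The LED mean was 1.42-fold the 0.121 CPM that 3 fragments per TNF library allow. That ratio leaves out the counting error of the LED values, so it is not a firm minimum. The LED values were themselves close to 0.121 CPM, and the call (adjusted p = 0.0464) was lost in all 6 omissions.

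No gene passed among 28 further glutathione genes, 23 detoxifying enzymes and transporters and 15 NADPH genes. At an unadjusted p below 0.05 there were 6 of the glutathione genes (21.4%) and 3 of the NADPH genes (20.0%), near the 22.7% of all genes, and 10 of the detoxifying genes (43.5%). CHAC1, which degrades glutathione, had the lowest p of the glutathione genes (61.5 ± 13.8 and 35.5 ± 5.93 CPM, log2 -0.79 ± 0.21, adjusted p = 0.0637). The 10 detoxifying genes were all higher, where 10.9% of all genes were higher at that p, with the UDP-glucose dehydrogenase UGDH at the lowest p (63.7 ± 2.46 and 111 ± 27.8 CPM, log2 0.80 ± 0.20, adjusted p = 0.0519), and their median was 0.46. The 15 NADPH genes had a median of -0.25, 11 of 15 below 0 and the folate enzyme MTHFD1 at the lowest p (117 ± 13.9 and 75.2 ± 1.65 CPM, log2 -0.64 ± 0.16, adjusted p = 0.0548). Across the 15 alternatives CHAC1 and MTHFD1 each passed in 3 and UGDH in 6.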

How the data were processed

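Total RNA was extracted with Trizol, depleted of ribosomal RNA with probes and fragmented by heat, per the labels' protocols. The deposited values were estimated counts per gene, as whole numbers, and entered the tests as deposited. Tools listed in the submitters' processing notes, with no role stated, are StringTie, HISAT2, limma, DESeq2 and bcl2fastq 2.0; the build listed is mouse mm10 although the cells are human, so which build and annotation gave the counts is unknown here. Of the values between 1 and 7, 41.8% equalled 4, so a fragment appeared to be worth about 4 units, and the limit for a count of 0 was 3 fragments (12 units) per library, for counting error only.

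TNF plus LED (n = 3) was compared with TNF (n = 3) with edgeR 4.0.16 (R 4.3.3), quasi-likelihood test, using filterByExpr, TMM scaling and robust dispersions, two-sided, Benjamini-Hochberg adjusted over 13794 genes, threshold 0.05. The SE is the log2 fold change divided by the square root of F. Exonic lengths and overlaps came from GENCODE 29 (19208 of 19475 symbols matched). Full statistics were to be given for called members, the lowest p in each functional group, NFE2L2 and KEAP1, and in each wider list for up to 4 called genes or else the lowest p. The further members given with an adjusted p, HMOX2 and HSPA1A were picked after their values were seen. Members and lists were chosen with earlier results of these data known. The procedure was tested on simulated counts. Alternatives were other filters, scalings and thresholds, DESeq2 1.42.0, voom of limma 3.58.1 and single-library omissions. Chosen after seeing the data were the AP-1 motif, a length and GC trend taken out of each library, a fit without TNF replicate 8 and LED replicate 6, and division of the counts by 4.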

Additional observations from a re-analysis of the deposited data

How the results depend on the processing

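With any single library left out, genes called higher numbered 59 to 314 and lower 21 to 423, members called higher 0 to 2 and lower 0, and further pathway genes called higher 1 to 5 and lower 0 to 2. Leaving out TNF replicate 14 or either of LED replicates 4 and 6 left no member called. DESeq2 called 874 genes higher and 879 lower, 4 members higher, and 16 pathway genes higher and 5 lower. A threshold of 0.1 gave 695 and 776 genes, 4 members, and 13 and 5 pathway genes. Without both libraries that stood apart there were 763 and 906 genes and 9 pathway genes lower, and the 2 members called were TXNRD1 and FTL. With the length and GC trend removed there were 709 and 838 genes, 4 members, and 11 and 8 pathway genes. Without a filter 1 pathway gene was lower. In every case the cause was not tested.

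No member or further pathway gene that passed changed sign in these alternatives. Among members that did not pass, 16 changed sign somewhere. In single-library omissions the log2 fold change ranged from -0.062 to 0.062 for GCLM, -0.077 to 0.23 for GPX1, -0.26 to 0.029 for GSS, -0.20 to 0.021 for PRDX1, -0.065 to 0.025 for PRDX3, -0.095 to 0.30 for PRDX4, -0.089 to 0.22 for PRDX5, -0.17 to 0.19 for BLVRB, -0.13 to 0.15 for TALDO1, -0.076 to 0.17 for SOD2, -0.084 to 0.45 for NFE2L2, -0.27 to 0.0056 for KEAP1, -0.21 to 0.35 for MAFF and -0.21 to 0.23 for BACH1. Without both libraries that stood apart it was -0.24 for SLC7A11, -0.010 for TXN, -0.043 for BLVRB, -0.024 for TALDO1, 0.077 for KEAP1 and -0.22 for BACH1. With the trend removed it was -0.063 for SOD2 and -0.0018 for BACH1, and with a filter at 1 CPM 0.00078 for GCLM. No paired analysis was possible because the groups share no sample numbers.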
